A study of Mus musculus with 5 samples.

Results

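The miR-322, miR-503, miR-351 and miR-542 hairpins are microRNA genes that lie close together on the mouse X chromosome. The 4 mature products miR-322, miR-503, miR-351 and miR-542-3p (mmu-miR-322, mmu-miR-503, mmu-miR-351 and mmu-miR-542-3p in the files) were selected by name from the 593 miRNA names that had a count in any of 5 small RNA libraries. The choice was made with their levels in these libraries known. Those levels and their fold changes are therefore given as a description, without p-values.

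The libraries came from the testis of C57BL/6 mice, in a study that asked which miRNAs mark populations rich in spermatogonial stem cells, the self-renewing cells at the start of sperm production. There was 1 library of a germ cell culture at about 10 passages, derived from stem cell enriched Thy1+ cells. There were 2 libraries of the freshly isolated Thy1+ fraction, held back on magnetic beads by an antibody to Thy1.2, and 2 of the fresh Thy1- fraction that was left, enriched for somatic cells by title. The titles of the Thy1- samples were followed for this, although another of their labels carries the name of the stem cell. No genetic change or drug treatment is labelled in any group, and both fresh fractions are mixtures of cells. Nothing in the labels ties replicates to different animals, and p-values therefore reflect only the variation among these libraries, which may be technical.

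A miRNA hairpin is cut by Drosha and Dicer, and the arm that enters Argonaute pairs with messenger RNAs mainly through its seed, bases 2 to 8. miR-322 is the mouse counterpart of human miR-424. With miR-503 it belongs to the extended miR-15 and miR-16 family, known for holding back the cell cycle through cyclins and Cdc25a, and it is known from muscle differentiation. miR-351 carries the seed of the miR-125 family, a relative of the lin-4 miRNA of worms. miR-542-3p is known from human cell lines as a repressor of survivin, a protein that protects dividing cells from death.

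The mature sequences below are RefSeq's on GRCm38.p6, with the seed in capitals. They show which members share a seed and which do not, and miR-16 and miR-125b-5p are added as relatives from other loci.
miR-322: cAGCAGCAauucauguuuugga
miR-503: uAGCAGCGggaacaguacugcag
miR-16: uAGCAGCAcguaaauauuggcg
miR-351: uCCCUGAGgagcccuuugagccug
miR-125b-5p: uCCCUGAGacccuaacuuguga
miR-542-3p: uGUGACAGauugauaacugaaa
miR-322 and miR-503 share bases 2 to 7 and differ at base 8. miR-351 has the same bases 2 to 8 as miR-125b-5p, and the seed of miR-542-3p matched no other named miRNA.

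All members are read from the minus strand: miR-322 at chrX:53054306-53054327, miR-503 at chrX:53054027-53054049, miR-351 at chrX:53053315-53053338 and miR-542-3p at chrX:53049415-53049436. The locus has 7 annotated hairpins within 6353 bases, chrX:53047997-53054349, between Hprt and Plac1. From Mir322, Mir503 starts 295 bases downstream, Mir351 996 bases, Mir542 4862 bases, and Mir450-2, Mir450-1 and Mir450b between 5982 and 6271 bases. No other annotated gene overlapped a hairpin. The noncoding gene Gm28730 lies between Mir351 and Mir542, and C430049B03Rik lies upstream of Mir322. The files name 11 mature products of these hairpins, and all 11 were matched to RefSeq by sequence.

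The hairpins of miR-322, miR-503 and miR-542 are printed because reads of both of their arms are compared below. The 2 mature arms of each are in capitals.
Mir322: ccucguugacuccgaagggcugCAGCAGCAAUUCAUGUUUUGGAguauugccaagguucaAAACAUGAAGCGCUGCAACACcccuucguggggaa
Mir503: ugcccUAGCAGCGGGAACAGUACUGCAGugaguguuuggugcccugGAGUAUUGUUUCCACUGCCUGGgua
Mir542: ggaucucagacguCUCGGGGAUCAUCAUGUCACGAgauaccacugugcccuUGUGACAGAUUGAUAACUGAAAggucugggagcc
In Mir322 and Mir503 the more abundant product is the 5′ arm, and in Mir542 it is the 3′ arm.

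The libraries held 5110007 miRNA counts in the culture, 937002 and 947687 in Thy1+ and 2548234 and 4909753 in Thy1-. Some lists of marker miRNAs differed between the fractions. Of 34 tested germ and stem cell miRNAs 27 were higher in Thy1+ than in Thy1- by edgeR with Benjamini-Hochberg adjustment (20.2% of all miRNAs), as were 6 of 6 of white blood cells, while 2 of 2 products of gonadal miR-202 and 3 of 3 of red blood cells were lower (7.76% of all). Of epithelial miRNAs 2 of 7 were higher, with log2 fold changes from -1.68 to 4.05, and of muscle miRNAs 1 of 2. Of mesenchymal miRNAs 0 of 9 were called by edgeR (1 at an unadjusted p under 0.05, 0 by DESeq2), and of endothelial miRNAs 0 of 2 (0 at an unadjusted p under 0.05, 0 by DESeq2).

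As a share of each library's counts, all 4 members were most abundant in the Thy1- fraction, lower in the Thy1+ fraction and lowest in the culture, although relative to the bulk of miRNAs (TMM scaling) miR-322 and miR-542-3p were not lower in the culture than in Thy1+. Levels are given as counts per 1000000 miRNA counts of a library (CPM). Each tag is most of a miRNA, so no length correction was applied.

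miR-322, the most abundant member, stood at 1176 CPM in the culture, at 3272 and 2591 CPM in the Thy1+ libraries, and at 8140 and 11233 CPM in the Thy1- libraries. By abundance it held rank 65 among all miRNAs in the culture, ranks 56 and 71 in Thy1+ and ranks 19 and 18 in Thy1-. Every Thy1+ value lay below every Thy1- value, and the culture lay below all fresh libraries. miR-503 was at 127 CPM in the culture, at 581 and 567 CPM in Thy1+, and at 2534 and 1582 CPM in Thy1-. Its Thy1+ libraries were nearly equal, while the Thy1- libraries were further apart and both higher.

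miR-351, the least abundant member, was at 45.0 CPM in the culture, at 199 and 247 CPM in Thy1+, and at 630 and 540 CPM in Thy1-. The culture value rests on 230 counts, with a 95% Clopper-Pearson interval of 39.4 to 51.2 CPM that covers counting error only. The groups did not overlap. miR-542-3p was at 714 CPM in the culture, at 986 and 1483 CPM in Thy1+, and at 3810 and 1591 CPM in Thy1-. Its groups came closest to each other, since Thy1+ replicate 2 was just below Thy1- replicate 2. The order miR-322, miR-542-3p, miR-503, miR-351 was the same in all 5 libraries, although miR-542-3p and miR-503 were nearly level in Thy1- replicate 2.

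**Figure D1:**
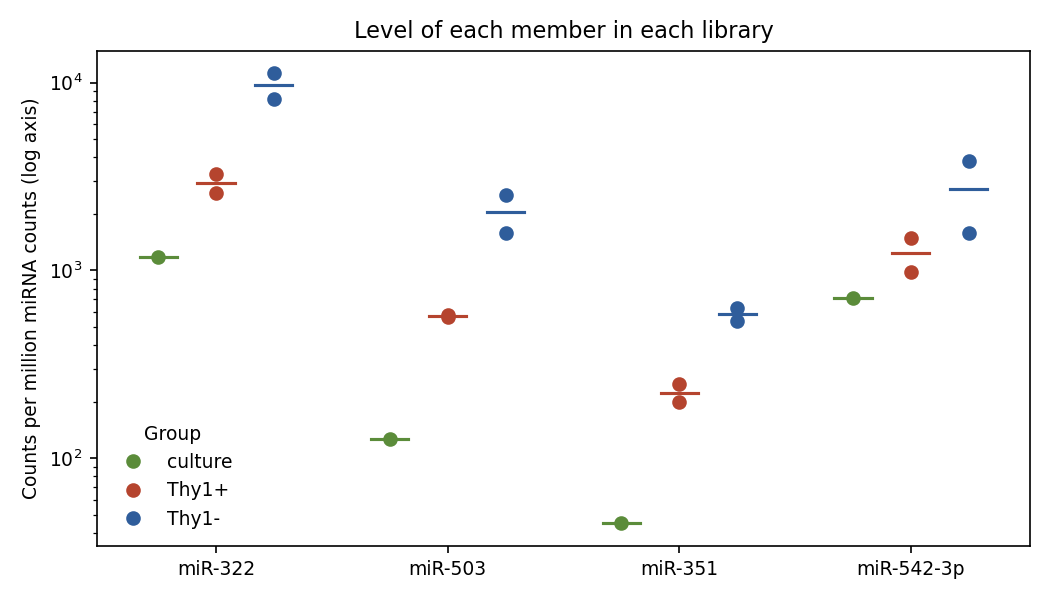
Level of each member in each library, in CPM on a log axis, with points for libraries and a bar at the group mean (1 culture, 2 Thy1+ and 2 Thy1- libraries). By CPM the culture lies lowest for every member (under TMM scaling not for miR-322 and miR-542-3p against Thy1+), and both Thy1- points lie above both Thy1+ points, most narrowly for miR-542-3p, with 1483 CPM in Thy1+ against 1591 CPM in Thy1-.

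Log2 fold changes come from edgeR with TMM scaling, which sets changes relative to the bulk of miRNAs, and are given with their standard error (SE). miR-322 averaged 2931 ± 482 CPM in Thy1+ and 9687 ± 2187 CPM in Thy1- (SD, n = 2 each), a log2 fold change of -2.29 (SE 0.52). miR-503 averaged 574 ± 9.85 CPM in Thy1+ and 2058 ± 673 CPM in Thy1- (SD, n = 2 each), which gave -2.37 (SE 0.48). For these members the fractions differed by more than 2 SD of either group.

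miR-351 averaged 223 ± 34.2 CPM in Thy1+ and 585 ± 63.6 CPM in Thy1- (SD, n = 2 each), a log2 fold change of -1.96 (SE 0.49). miR-542-3p averaged 1234 ± 351 CPM in Thy1+ and 2700 ± 1570 CPM in Thy1- (SD, n = 2 each), at -1.66 (SE 0.52). Its difference was smaller than the SD in Thy1-, and without Thy1- replicate 1 its log2 fold change was -0.92. The median over the 4 members was -2.12, against -0.07 over all 425 miRNAs tested.

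In Thy1+ against Thy1-, 4 of 4 members passed the edgeR threshold of 0.05 after Benjamini-Hochberg adjustment as lower, where 7.76% of all tested miRNAs did. The same 4 had every Thy1+ CPM below every Thy1- CPM, as did 20.2% of all. This contrast was known when the members were chosen, so nothing is read from those counts. The calls depended on single libraries. Without Thy1- replicate 1, miR-542-3p was no longer called and the other 3 members were. Without Thy1+ replicate 1, and again without Thy1+ replicate 2, 0 members and 0 of all miRNAs were called by edgeR (112 and 105 of all at an unadjusted p under 0.05). Scaling to total counts moved the median of all miRNAs by 0.56, and 2 members, miR-322 and miR-503, were then called.

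In a bulk fraction, fewer cells of a type and less RNA per cell cannot be told apart. By summed CPM, some marker lists moved with the members, and others ran the other way or overlapped between the fractions. The summed level of 2 miR-202 products was 173 CPM in the culture, 1138 and 2205 CPM in the Thy1+ libraries, and 18584 and 3712 CPM in Thy1-, the same order of groups as the members. The 3 red blood cell miRNAs summed to 12.5 CPM in the culture, 252 and 179 CPM in the Thy1+ libraries, and 1344 and 1475 CPM in Thy1-. The 37 germ and stem cell miRNAs, of which 1 was at 0 in each Thy1- library and 2 in the culture, summed to 107261 CPM in the culture, 232570 and 261712 CPM in the Thy1+ libraries, and 37961 and 28032 CPM in Thy1-. The 6 white blood cell miRNAs summed to 937 CPM in the culture, with 1 at 0, to 14912 and 26552 CPM in Thy1+, and to 2017 and 1346 CPM in Thy1-. The 9 mesenchymal miRNAs, at 65256 CPM in the culture, 27472 and 38717 CPM in Thy1+, against 46813 and 31360 CPM in Thy1-, overlapped between the fractions. The part of these cell types in the members' levels was not tested.

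By CPM, the culture was below both Thy1+ libraries for 4 of 4 members, and so were 79.6% of all miRNAs. Relative to the bulk of miRNAs the members lay on both sides of 0. The log2 fold change of the culture over Thy1+ was 0.32 (SE 0.61) for miR-322, 0.89 (SE 0.62) for miR-542-3p, -0.53 (SE 0.62) for miR-503 and -0.64 (SE 0.64) for miR-351. The single culture library has no spread of its own and was assumed to vary like the fresh groups.

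By edgeR, 0 of 4 members were called between culture and Thy1+ (0 at an unadjusted p under 0.05, 0 by DESeq2), against 22.3% of all 470 miRNAs tested in either direction. The members were chosen with this contrast known as well, so nothing is read from that count. Scaling to total counts moved the median of all miRNAs by -1.65. All 4 members were then below 0, with miR-322 at -1.32 and miR-542-3p at -0.79, and miR-503 (-2.18) and miR-351 (-2.31) were called lower. The direction for miR-322 and miR-542-3p between culture and Thy1+ thus depended on the scaling, and that of miR-322 also on Thy1+ replicate 2, without which it was at -0.29.

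In culture against Thy1-, 3 of 4 members were called lower by edgeR, where 16.8% of all miRNAs were, and 4 of 4 had the lower CPM, as did 61.9% of all. The log2 fold change was -2.03 (SE 0.69) for miR-322, -2.95 (SE 0.71) for miR-503 and -2.65 (SE 0.71) for miR-351. For miR-542-3p, which was not called, it was -0.82 (SE 0.66). This contrast too was known when the members were chosen, so nothing is read from how many members were called or lay lower. The fold changes share their Thy1- libraries with the comparison of the fresh fractions. Without Thy1+ replicate 1 or without Thy1- replicate 1, 1 member was called, and without Thy1+ replicate 2, 0 were. Without Thy1- replicate 2, and again with tied tags left out, 2 were called, miR-351 and miR-503. Total scaling moved the median of all miRNAs by -1.04 and left the same 3 members called.

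The other 7 products of the locus are the second arms of the miR-322, miR-503 and miR-542 hairpins and the products of the miR-450 hairpins. All 11 products together held 0.244% of the miRNA counts in the culture, 0.561% and 0.534% in Thy1+, and 1.69% and 1.60% in Thy1-. In Thy1+ against Thy1-, 6 of the 7 had enough counts to be tested. Of these 6, 2 were called lower by edgeR, where 7.76% of all miRNAs were, and 5 had an unadjusted p under 0.05. DESeq2 called 4 lower. Over all 425 miRNAs tested, 182 had an unadjusted p under 0.05 by edgeR in either direction, and DESeq2 called 53 lower. All 6 log2 fold changes were below 0, between -2.32 and -1.20 (median -1.82, against -0.07 over all miRNAs tested).

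miR-322*, the other arm of the miR-322 hairpin, was at 76.8 and 68.6 CPM in Thy1+ against 311 and 179 CPM in Thy1- (log2 fold change -2.27, SE 0.56, edgeR Benjamini-Hochberg adjusted p = 0.0264). miR-503* was at 65.1 and 69.6 CPM in Thy1+ against 191 and 259 CPM in Thy1- (log2 fold change -2.32, SE 0.57, edgeR adjusted p = 0.0264). The groups did not overlap for either arm. Each is cut from the same hairpin as a member and is therefore not a separate gene. The members were chosen with this contrast known, so the p-values of these arms are not independent of that choice. Neither arm was called with total scaling, with the replicate block, or when either Thy1+ library was left out.

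miR-542-5p was at 96.1 and 70.7 CPM in Thy1+ against 170 and 168 CPM in Thy1- (log2 fold change -1.56, SE 0.55), and did not pass (edgeR adjusted p = 0.0638). miR-450a-5p, whose sequence is the same in Mir450-1 and Mir450-2, was at 243 and 154 CPM in Thy1+ against 1005 and 234 CPM in Thy1- (log2 fold change -2.08, SE 0.73, edgeR adjusted p = 0.0638). Its groups overlapped, and its high value came from Thy1- replicate 1, as it did for miR-542-3p. DESeq2 called both miR-542-5p and miR-450a-5p lower, as did edgeR with no filter on low counts, and neither was called with total scaling. miR-450b-5p (-1.20) and miR-450b-3p (-1.35) did not pass either. miR-450a-3p, at 2.13 and 3.17 CPM in Thy1+ against 5.49 and 6.72 CPM in Thy1-, was not tested there.

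In the culture the same 7 products lay between 2.74 and 177 CPM. Against Thy1+, 0 of 7 were called by edgeR (1 at an unadjusted p under 0.05, 0 by DESeq2), and 6 of 7 log2 fold changes were above 0, up to 1.69. With total scaling 5 of these 6 were below 0. The value of 1.69 was that of miR-450a-3p (SE 0.92), which had 2 and 3 counts in Thy1+ and 14 in the culture. Against Thy1-, 0 of 7 were called by edgeR (2 at an unadjusted p under 0.05, 0 by DESeq2), and all 7 values were below 0, down to -1.65.

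**Figure D2:**
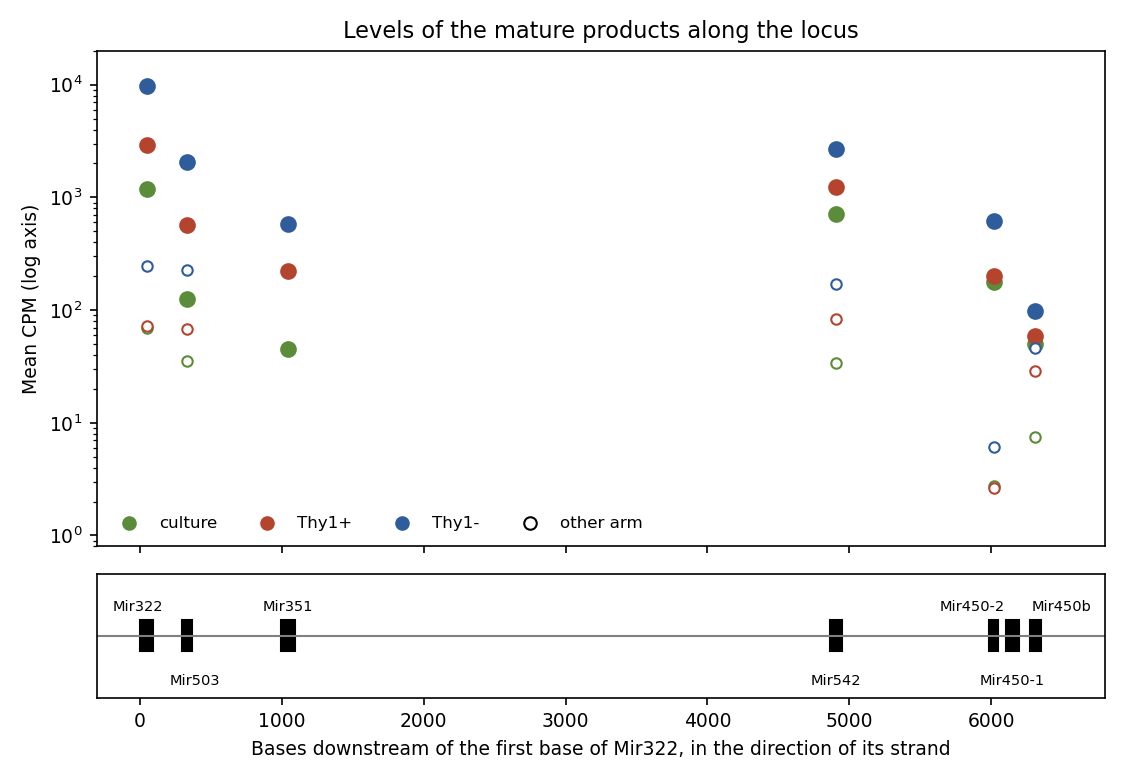
Mean CPM (log axis) of each mature product against the distance of its hairpin from the start of Mir322, in bases along the transcribed strand, with filled points for the more abundant arm, open points for the other arm, and the 7 hairpins drawn to scale. Levels did not follow position: in Thy1- miR-542-3p averaged 2700 CPM while miR-351, which lies between it and miR-503, averaged 585 CPM.

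Shares within the locus do not depend on how libraries are scaled. Of the 4 members' summed counts, miR-322 made up 57.0% in the culture, 65.0% and 53.0% in Thy1+, and 53.9% and 75.2% in Thy1-. miR-542-3p made up 34.6% in the culture, 19.6% and 30.3% in Thy1+, and 25.2% and 10.6% in Thy1-. For both, replicates of a fraction differed as much as the fractions did.

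miR-503 made up 6.14% of the members' counts in the culture (95% Clopper-Pearson interval 5.69% to 6.62%), against 11.5% and 11.6% in Thy1+ and 16.8% and 10.6% in Thy1-. miR-351 made up 2.18% in the culture (1.91% to 2.48%), 3.94% and 5.05% in Thy1+, and 4.17% and 3.62% in Thy1-. The culture thus had the lowest miR-503 and miR-351 shares and the highest miR-542-3p share of the 5 libraries. These shares add to a fixed total and are not separate results. The intervals cover counting error only, and a single culture library has no spread of its own, so no difference is read from them. There were 5.64 miR-542-3p counts for each miR-503 count in the culture, 1.70 and 2.62 in Thy1+, and 1.50 and 1.01 in Thy1-. The ratio of miR-503 to miR-351 varied less, at 2.81 in the culture, 2.92 and 2.29 in Thy1+, and 4.02 and 2.93 in Thy1-.

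**Figure D3:**
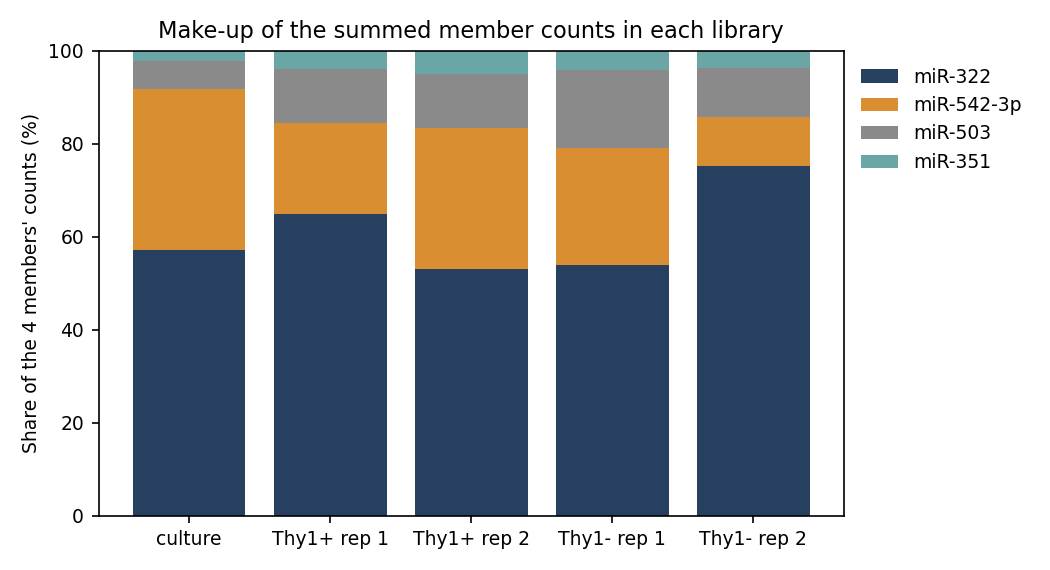
Share of each member in the summed counts of the 4 members, in percent, with 1 stacked bar per library. The miR-542-3p share is 34.6% in the culture and between 10.6% and 30.3% in the fresh libraries, while the miR-503 share is 6.14% in the culture and between 10.6% and 16.8% in the fresh libraries.

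The share of a hairpin's reads that came from its less abundant arm was measured as well. For miR-503 the minor arm held 21.9% in the culture (interval 19.1% to 24.8%), 10.1% and 10.9% in Thy1+, and 7.01% and 14.1% in Thy1-. For miR-322 it held 5.53% in the culture (4.98% to 6.12%), 2.29% and 2.58% in Thy1+, and 3.68% and 1.57% in Thy1-. Both were above every fresh library in the culture. For miR-450b the minor arm held 13.1% in the culture (9.41% to 17.5%), below every fresh library, against 31.8% and 34.2% in Thy1+ and 45.7% and 20.9% in Thy1-. The minor arm of miR-542, its 5′ arm, held 4.58% in the culture, 8.88% and 4.55% in Thy1+, and 4.28% and 9.57% in Thy1-. Replicates thus spread as widely as the groups for miR-542. With a single culture library and intervals of counting error only, no culture difference is read from these arm shares.

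The tags show which ends each member had. The files list no tag that reaches past the annotated 3′ end of a miRNA (0 of 190621 rows), so longer forms were not measured. The most frequent tags, printed here to show where the 3′ ends lie, matched the annotated miRNA letter for letter and are given in DNA letters with the seed in capitals.
miR-322, 21 bases: cAGCAGCAattcatgttttgg
miR-322, 22 bases: cAGCAGCAattcatgttttgga
miR-503, 23 bases: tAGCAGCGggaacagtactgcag
miR-351, 22 bases: tCCCTGAGgagccctttgagcc
miR-351, 20 bases: tCCCTGAGgagccctttgag
miR-542-3p, 20 bases: tGTGACAGattgataactga
miR-542-3p, 22 bases: tGTGACAGattgataactgaaa
All of them begin at the annotated first base, so they keep the same seed.

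miR-503 was mostly a single full-length tag, which held 79.0% of its counts in the culture, 74.1% and 80.6% in Thy1+, and 75.7% and 77.9% in Thy1-. miR-322 was divided between its 21-base and 22-base tags. The shorter tag held 53.2% in the culture, 63.8% and 40.3% in Thy1+, and 44.0% and 52.3% in Thy1-. The full-length tag held 28.3% in the culture, 21.3% and 40.4% in Thy1+, and 36.3% and 30.0% in Thy1-. The widest difference in miR-322 ends was between the 2 Thy1+ libraries.

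miR-542-3p had its main tag 2 bases short of the annotated end, with 39.1% in the culture, 43.2% and 44.1% in Thy1+, and 40.1% and 42.4% in Thy1-. Its full-length tag held 33.8% in the culture, 29.9% and 25.6% in Thy1+, and 29.1% in each Thy1- library. miR-351 had no dominant tag. Its most abundant tag held 29.1% in the culture, 24.7% and 17.5% in Thy1+, and 15.7% and 17.3% in Thy1-, where the median over 189 miRNAs lay between 57.9% and 63.7% by library.

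**Figure D4:**
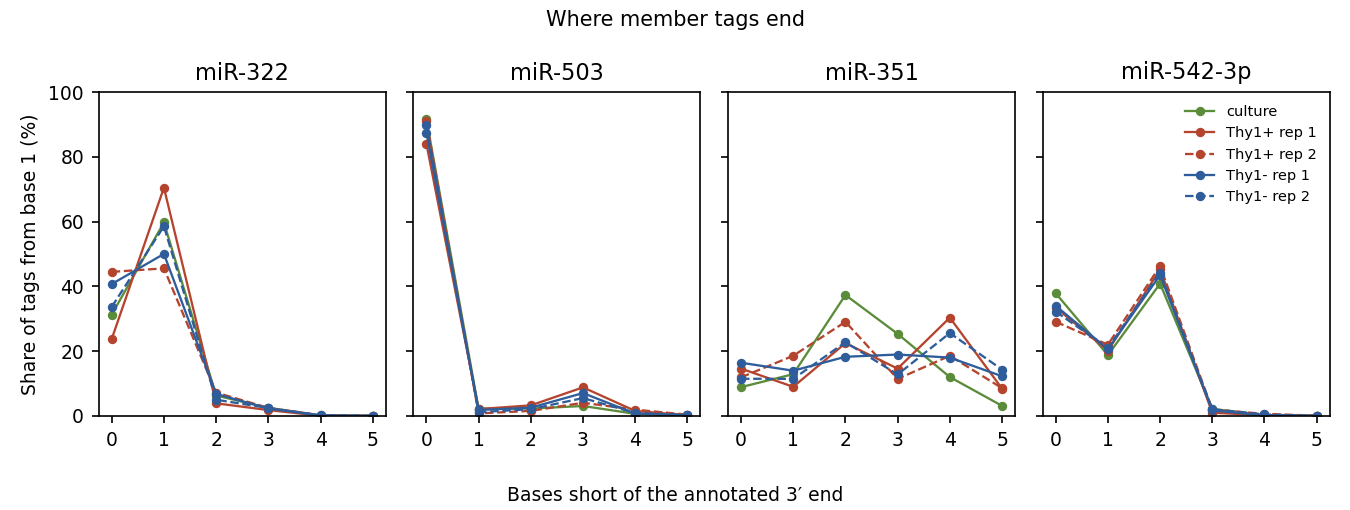
Share of each member's tags starting at base 1, in percent, by the number of bases by which they stop short of the annotated 3′ end, with 1 line per library. miR-503 tags peak at the annotated end, miR-322 tags 1 base short of it and miR-542-3p tags 2 bases short of it in every library, while miR-351 tags spread over ends up to 5 bases short.

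The files list no tag that begins before the annotated first base, so earlier starts were not measured. Among the listed tags, starts varied less than ends. The share of tags that began at the annotated first base was 96.5% to 99.0% for miR-322, 95.7% to 98.2% for miR-503 and 99.1% to 99.5% for miR-542-3p over the 5 libraries. miR-351 ranged more widely, between 89.7% in Thy1+ replicate 2 and 98.6% in Thy1- replicate 1.

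miR-351 also differed in its last base. A last base that did not match the annotated miRNA was present in 22.6% of its counts in the culture (interval 17.4% to 28.6%), 13.4% and 18.8% in Thy1+, and 13.5% and 12.9% in Thy1-. Among tags from base 1 the unmatched base in the culture was A in 32 and T in 17 of 52 such counts. In the Thy1+ libraries it was A in 10 and T in 12 of 25, and A in 21 and T in 22 of 44. In the Thy1- libraries it was A in 95 and T in 113 of 213, and A in 181 and T in 133 of 329. Mismatches at an inner base of miR-351 averaged 0.40% to 1.02% of counts per base by library. Over 189 miRNAs with enough counts the median share was between 1.79% and 2.41% by library, and the upper quartile between 3.97% and 5.40%. The other members had between 0.68% and 4.41%, so miR-351 lay above the upper quartile in all 5 libraries and no other member did so in all of them. Tags past the annotated end are not listed, so an added base could show only on a tag that stopped short. Of tags from base 1, 8.89% to 16.4% reached the annotated end for miR-351 and 84.1% to 91.6% for miR-503. This share therefore does not compare miRNAs on equal terms.

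Over 25 shares and mean tag lengths of the locus, two-sided exact permutation tests of Thy1+ against Thy1- (2 libraries each) gave p = 0.333 or above. That is the smallest p this design allows, and every adjusted p was 1. Fractions did not overlap in 2 of the 25, the share of the most abundant tag for miR-351 and for miR-542-3p, both higher in Thy1+. Randomly labelled libraries, 2 against 2, would separate with probability 0.333, so nothing is read from these 2. For miR-351 the nearest values were 17.5% in Thy1+ replicate 2 and 17.3% in Thy1- replicate 2. Its most abundant tag had 20 bases in Thy1+ replicate 1 and 22 bases in Thy1+ replicate 2.

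miR-322 and miR-503 were set beside the 5 other miRNAs with the same bases 2 to 7, miR-15a, miR-15b, miR-16, miR-195 and miR-497. The 7 together stood at 3597 CPM in the culture, 7729 and 7914 CPM in the Thy1+ libraries, and 17436 and 19147 CPM in Thy1-. miR-322 made up 32.7% of them in the culture, 42.3% and 32.7% in Thy1+, and 46.7% and 58.7% in Thy1-. miR-16, the most abundant relative from other chromosomes, made up 53.1% in the culture, 39.4% and 44.2% in Thy1+, and 31.4% and 27.4% in Thy1-. miR-322 therefore held more of the pool than miR-16 in both Thy1- libraries and in Thy1+ replicate 1, and less in the culture and in Thy1+ replicate 2.

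In Thy1+ against Thy1-, 0 of these 5 relatives were called by edgeR (1 at an unadjusted p under 0.05, 1 by DESeq2), with a median log2 fold change of -0.79. miR-16 came nearest, with 3048 and 3498 CPM in Thy1+ against 5467 and 5251 CPM in Thy1- (log2 fold change -1.28, SE 0.44, edgeR adjusted p = 0.0600). Whether miR-322 and miR-16 differ in their change was not tested. In culture against Thy1+, 0 of 5 were called by edgeR (0 at an unadjusted p under 0.05, 0 by DESeq2), and against Thy1- also 0 of 5 (1 at an unadjusted p under 0.05, 0 by DESeq2).

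**Figure D5:**
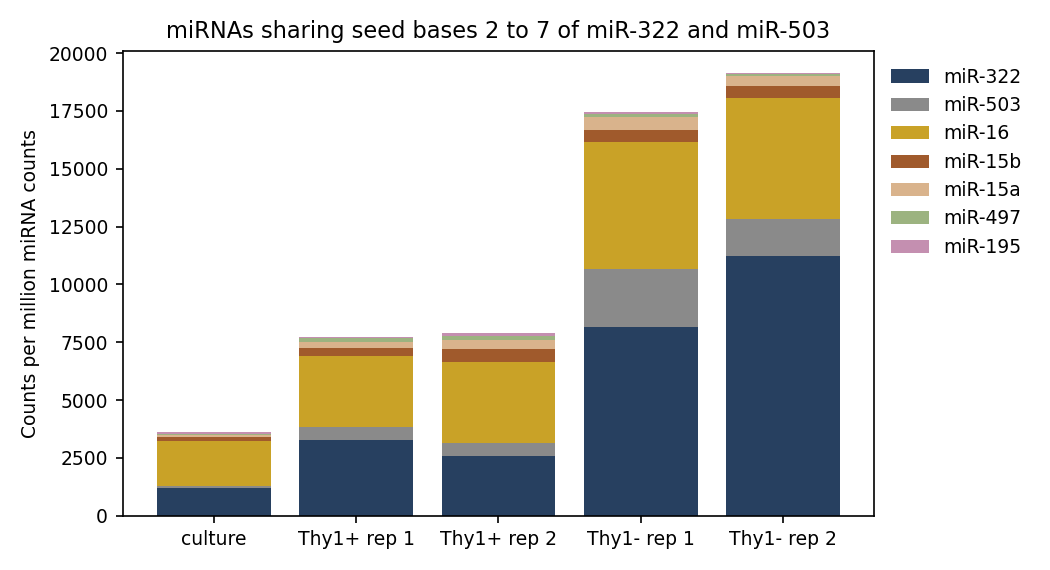
Summed CPM of the 7 miRNAs that share seed bases 2 to 7 with miR-322 and miR-503, stacked by miRNA, with 1 bar per library. The total is 3597 CPM in the culture, 7729 and 7914 CPM in the Thy1+ libraries, and 17436 and 19147 CPM in Thy1-, with miR-322 the largest block in both Thy1- libraries and miR-16 the largest in the culture.

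miR-351 was a small part of the miRNAs with its seed. It made up 0.465% of the summed miR-351, miR-125a-5p and miR-125b-5p counts in the culture, 2.05% and 4.39% in Thy1+, and 6.33% and 2.77% in Thy1-. miR-125b-5p reached 7441 CPM in the culture, against 4116 and 3245 CPM in Thy1+ (log2 fold change 2.65, SE 0.64, edgeR Benjamini-Hochberg adjusted p = 0.0241). Against Thy1- its log2 fold change was 1.55 (SE 0.64) and was not called. The call against Thy1+ rested on 1 culture library with no spread of its own, and was lost when either Thy1+ library was left out. The log2 fold changes are relative to the bulk of miRNAs, and total scaling moved the median of all miRNAs against Thy1+ by -1.65. By CPM, miR-125b-5p thus had its highest level of the 5 libraries in the culture and miR-351 its lowest. Relative to the bulk of miRNAs, miR-351 in the culture was at -0.64 (SE 0.64) against Thy1+ and was not called.

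The miRNAs with the most similar profile were found by the root mean square difference of centred log2(CPM + 1) values over the 5 libraries, among 229 non-members averaging at least 100 CPM. Nearest to miR-322 was miR-503* at 0.21, followed by miR-107 at 0.32 and miR-196a, encoded in the Hox clusters, at 0.35. Nearest to miR-503 were miR-17* at 0.30, miR-99b* at 0.38 and the gonadal miR-202-3p at 0.41. Nearest to miR-351 were miR-106b at 0.28, miR-107 at 0.28 and miR-99b* at 0.29. The median distance to all candidates was 1.33 for miR-322, 1.46 for miR-503 and 1.30 for miR-351.

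miR-542-3p had other neighbours, namely miR-30a at 0.22, miR-30e at 0.26 and miR-425 at 0.27, against a median of 1.14. Between members, miR-503 and miR-351 were closest at 0.26, miR-322 lay 0.46 from miR-351 and 0.52 from miR-503, and miR-542-3p lay 0.78 to 0.84 from the other members. By this measure miR-542-3p was nearer to miR-30a than to any other member. The same held for miR-322 with miR-503*, miR-107 and miR-196a, while miR-503 and miR-351 were nearest to each other. The nearest non-member was picked from 229 candidates, far more than there are members, so nothing is read from this order.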

How the data were processed

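The deposited files hold, for each small RNA tag, raw counts as the authors gave them, with its placement on mature miRNAs. Annotation was to miRBase 12.0 with an upper tag length of 35 bases, per the file names. The submitters' processing notes name DESeq; how adapters were removed, and which aligner and build were used, is not given in the sources used here. Libraries were made by Illumina small RNA protocols, per the labels' protocols. Reads carry no molecular identifiers, so intervals cover counting error only.

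Each tag was assigned to its best placement with at most 2 mismatches, and ties were split equally (1 of 3377 member tags). Tests used edgeR 4.0.16 in R 4.3.3 (quasi-likelihood, TMM, filterByExpr), fitted on the 4 fresh libraries for Thy1+ against Thy1- and on all 5 for the culture, with Benjamini-Hochberg adjustment over all miRNAs tested and a threshold of 0.05. DESeq2 1.42.0 was an alternative. The fits were also run on simulated data, with larger changes than the members had and less spread than these libraries. That run does not show how the fits perform here. Exact permutation tests used SciPy 1.17.1.

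The named miRNAs were the 4 members, the other products of their locus, miRNAs sharing a seed, the 3 nearest profiles of each member and the main tags. Members and lists were chosen with earlier results of these data known. Alternatives changed scaling, filter, mismatches, ties, tag length, test, libraries and replicate block.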

Additional observations from a re-analysis of the deposited data

How the results depend on the processing

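For the members, the log2 fold change of Thy1+ over Thy1- was below 0 under every alternative run, between -2.65 and -0.92. Total scaling gave 2 called products of the locus, both members. Leaving out 1 library gave 0 to 137 calls over all miRNAs, 0 to 7 in the locus and 0 to 4 members. Replicate numbers 1 and 2 gave only 2 pairs with a deviation correlation of -0.06 over 425 miRNAs, so they were not taken as pairs. With the replicate block 32 miRNAs were called, with 0 locus products and 0 members. For culture against Thy1+, total scaling gave 177 calls, with 2 locus products, both members, and reversed miR-322* (-0.078), miR-503* (-0.93), miR-542-5p (-1.28), miR-450a-5p (-0.17) and miR-450b-3p (-0.24). Leaving out a library gave 0 to 120 calls, with miR-322 between -0.29 (without Thy1+ replicate 2) and 0.65 and miR-542-5p between -0.30 (without Thy1+ replicate 2) and 0.74. For culture against Thy1-, total scaling called 6 locus products, and leaving out a library gave 41 to 128 calls, 0 to 2 in the locus and 0 to 2 members; with tied tags left out miR-322 was not called. There miR-450b-3p, near 0, reversed to 0.023 (RLE scaling and DESeq2), 0.013 (no filter) and 0.12 (tied tags left out) and ranged between -0.67 and 0.73 (without Thy1- replicate 2), and miR-450a-5p between -1.31 and 0.30 (without Thy1- replicate 1). Shares, as Thy1+ minus Thy1-, reversed with exact tags only for the miR-503 top tag (-0.56 percentage points), miR-351 mean length (-0.076 bases) and miR-542-3p first base (0.080 points), and with tags of at least 18 bases for the miR-450b minor arm (0.57), miR-322 first base (0.14) and miR-542-3p first base (0.053). Their causes were not tested. Counts were lowest for miR-351 among the members (186 to 234 in the culture and Thy1+) and lower still for miR-450a-3p (2 to 33 over the libraries).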
